A study of Homo sapiens with 6 samples.

Results

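Eukaryotic translation initiation factors (eIFs) are the proteins that bring the initiator tRNA, the mRNA and the ribosomal subunits together at the start codon. They were taken here as every gene in the deposited count table whose symbol begins with EIF1 to EIF6. Of 143 such symbols, 6 with EIF2AK, which name eIF2 kinases and their relatives, and 80 pseudogenes were left out, so that 57 of the 60419 genes in the table remained. The 57 were 52 protein-coding genes and 5 antisense or divergent transcripts named after a factor. The samples were 12Z cells, an immortalised human endometriotic line labelled wild type, in 2 groups of 3 libraries. One group received Myrrh extract, a plant resin extract, at 100 µg/mL in DMSO for 12 h and the other received DMSO alone. All cells were kept in DMEM/F12 with 10% charcoal-stripped serum. The labels do not state that each library is its own culture, and p-values therefore cover only the spread between these libraries, which may be technical.

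Initiation in animal cells starts when eIF2, a GTPase of an alpha, a beta and a gamma subunit, carries the initiator tRNA to the small ribosomal subunit together with eIF1, eIF1A, eIF3 and eIF5. The eIF4F complex, made of the cap-binding eIF4E, the scaffold eIF4G and the helicase eIF4A, loads the mRNA. After each round eIF2B reloads eIF2 with GTP, and phosphorylation of eIF2 alpha by stress kinases blocks that step, while the 4E-BPs compete with eIF4G for eIF4E.

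The libraries held 22454783 to 24531493 estimated counts in the Myrrh group and 22592816 to 27588151 in the DMSO group (p = 0.3 by a two-sided exact permutation test, whose lowest possible p is 0.1). Transcripts of the 13 mitochondrially encoded mRNAs took 4.22% to 5.17% of counts in Myrrh libraries, against 13.1% to 13.8% in DMSO libraries. The part of this in the values of nuclear genes was not tested, but scaling by library totals instead of TMM factors gave a median log2 fold change of all genes of -0.16, against -0.02 with TMM. As a check of the label, the epithelial keratins KRT8 and KRT18 were high, with means of 548 and 548 TPM in Myrrh and 771 and 661 TPM in DMSO, but the epithelial cadherin CDH1 was near 0 in both groups, at 0.194 and 0.176 CPM. The summed level of the 6 epithelial markers was 1160 to 1270 TPM in Myrrh and 1570 to 1600 TPM in DMSO. Of the 5 tested, 2 were higher (KRT7 and EPCAM) and 3 lower (KRT8, KRT18 and KRT19). KRT7 and EPCAM were low, with means of 8.91 and 2.54 TPM in Myrrh and 5.84 and 1.12 TPM in DMSO. All 6 stromal markers fell, with sums of 1820 to 1940 TPM in Myrrh and 3710 to 3780 TPM in DMSO. The 4 endothelial markers summed to 0.04 to 0.13 TPM in Myrrh and 0.1 to 0.27 TPM in DMSO, with CDH5 at 0 in every library, and the 5 leukocyte markers to 0.47 to 0.54 TPM in Myrrh and 2.09 to 3.02 TPM in DMSO, with CD3E and MS4A1 at 0. The part of these shifts in the initiation factor values was not tested. Fewer cells of a type and less RNA per cell cannot be told apart in bulk RNA.

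Of the 57 genes, 52 passed the filter on low counts. In the Myrrh libraries 42 of these passed the threshold, where 78.4% of all 16395 genes did. Of the 42, 38 rose and 4 fell, and 10 members were not called. That is 73.1% higher and 7.69% lower, against 39.3% higher and 39.1% lower among all genes tested (edgeR's quasi-likelihood test, Benjamini-Hochberg adjusted p under 0.05 over all genes). Their median log2 fold change, Myrrh over DMSO, was 0.45, against -0.02 for all genes. Scaled by library totals, the members split into 34 higher and 8 lower, and all genes into 5378 higher and 7479 lower, against 6436 and 6418 with TMM factors. An increase of at least 2-fold was reached by 8 members, or 15.4%, which is near the 11.3% of all genes tested. No member fell by that size, against 18.0% of all genes. The 3 Myrrh and 3 DMSO libraries did not overlap in 46 of 52 members (88.5%), against 80.3% of all genes. In summed counts, the 57 genes held 0.987% ± 0.00421 of each Myrrh library and 0.738% ± 0.00802 of each DMSO library (SD, n = 3 each).

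**Figure D1:**
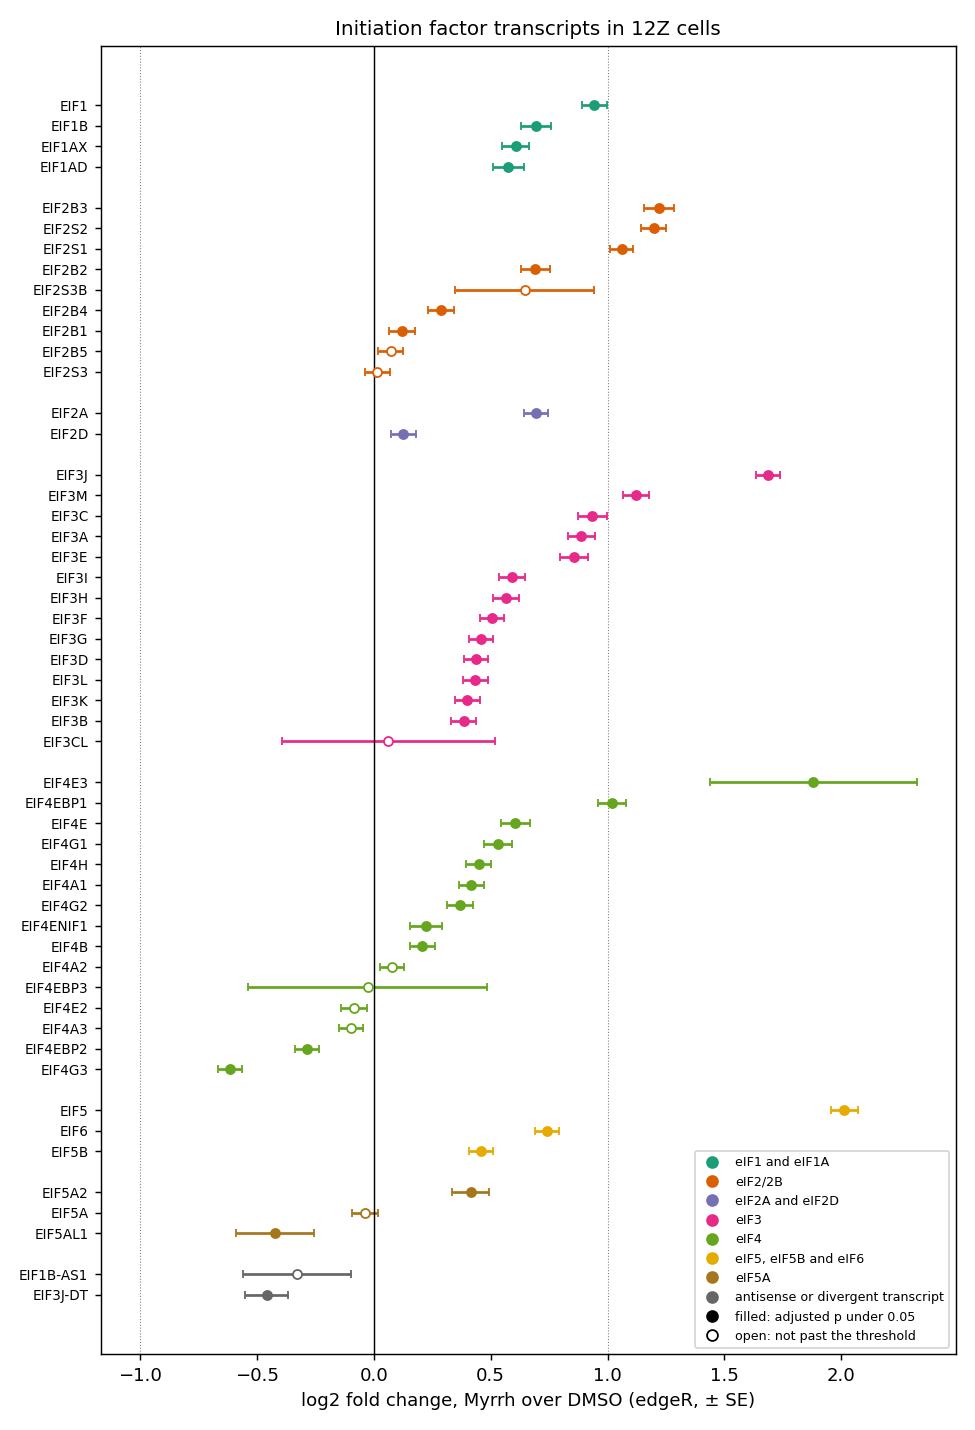
The log2 fold change of each of the 52 tested members, Myrrh over DMSO, with its standard error, sorted within role. Filled points passed an adjusted p of 0.05 and dotted lines mark 2-fold. EIF5 (2.01) lies farthest to the right and EIF4G3 (-0.62) farthest to the left.

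The eIF2 with eIF2B, eIF3 and eIF4 genes are set side by side here. Of 9 eIF2 and eIF2B genes 6 rose, none fell and 3 were not called, with a median log2 fold change of 0.65. Among the 14 eIF3 genes 13 rose, none fell and 1 was not called, with a median of 0.54. Of 15 eIF4 genes tested 9 rose, 2 fell and 4 were not called, with a median of 0.23. The shares called higher were 66.7%, 92.9% and 60% in this order, against 39.3% of all genes tested. For eIF4 13.3% were lower, against 39.1% of all genes. In either direction, 78.4% of all genes were called. In summed counts, eIF2 and eIF2B genes held 0.101% ± 0.000785 of Myrrh libraries and 0.0723% ± 0.000801 of DMSO libraries. The eIF3 genes held 0.301% ± 0.00551 in Myrrh and 0.199% ± 0.00327 in DMSO, and the eIF4 genes 0.343% ± 0.00443 in Myrrh and 0.303% ± 0.00393 in DMSO (SD, n = 3 each). The differences between groups of genes were not tested, since genes are not replicates.

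Within eIF2, the alpha and beta subunit transcripts rose and the gamma subunit transcript did not pass the test. EIF2S1, the alpha subunit that stress kinases phosphorylate, had 159.6, 159.1 and 161.8 CPM in Myrrh libraries (CPM are counts scaled to 1 common library size with TMM factors), against 73.7, 75.9 and 80.8 CPM in DMSO libraries. The groups stood well apart, with a log2 fold change of 1.06 ± 0.05 (SE throughout, adjusted p = 2.15e-16). EIF2S2, the beta subunit, had 391, 421 and 395 CPM in Myrrh and 173, 177 and 176 CPM in DMSO, a log2 fold change of 1.20 ± 0.06 with no overlap. EIF2S3, the gamma subunit, which binds GTP and the initiator tRNA, had 241, 234 and 240 CPM in Myrrh and 231, 240 and 237 CPM in DMSO. These values overlapped, and the log2 fold change was 0.02 ± 0.05 (adjusted p = 0.789); with library totals it was -0.13 and passed the threshold (adjusted p = 0.0299). EIF2S3B, a retrocopy of the gamma subunit gene, stayed near 1 CPM, with means of 0.978 and 0.626 CPM and a log2 fold change of 0.65 ± 0.30 (adjusted p = 0.0502). Because the copy is similar in sequence to EIF2S3, its reads are uncertain; with both summed, the log2 fold change was 0.02.

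The ratio between subunit transcripts therefore shifted. Per length, EIF2S2 stood at 2.18 ± 0.167 times EIF2S3 in Myrrh libraries and 0.928 ± 0.0266 times in DMSO libraries, in TPM, the unit of the authors that corrects for transcript length. EIF2S1 stood at 1.57 ± 0.161 times EIF2S3 in Myrrh and 0.49 ± 0.0341 times in DMSO (SD, n = 3 each). In counts the ratio of EIF2S1 to EIF2S3 changed less, by 1.05 on the log2 scale, against 1.68 in TPM, and that of EIF2S2 by 1.18, against 1.23. Both TPM ratios were higher in every Myrrh library than in any DMSO library. For each of the 10 within-library ratios computed, chosen after the values were seen, the two-sided exact permutation p was 0.1, the smallest that 3 against 3 libraries can give, and so was the adjusted p.

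The 5 subunits of eIF2B, the exchange factor that reloads eIF2, moved by unequal amounts. EIF2B3, the gamma subunit of the catalytic part, had 45.0, 45.5 and 47.3 CPM in Myrrh and 21.1, 18.8 and 19.3 CPM in DMSO. That is a log2 fold change of 1.22 ± 0.07 (adjusted p = 2.62e-15), with no overlap. EIF2B5, the catalytic epsilon subunit, had 59.4, 57.1 and 57.4 CPM in Myrrh and 56.4, 55.1 and 53.9 CPM in DMSO. Its groups did not overlap, but the log2 fold change of 0.07 ± 0.05 did not pass the threshold (adjusted p = 0.221). Between these, EIF2B2 and EIF2B4, of the beta and delta subunits, rose by 0.69 ± 0.06 and 0.29 ± 0.06. EIF2B1, the alpha subunit, was called at 0.12 ± 0.06 with an adjusted p of 0.0496, a call that was lost when Myrrh replicate 2 (0.0936) or 3 (0.0547) or DMSO replicate 1 (0.204), 2 (0.0622) or 3 (0.0986) was left out, and with library totals its value was -0.02. In TPM, EIF2B3 stood at 1.25 ± 0.0575 times EIF2B5 in Myrrh and 0.557 ± 0.0201 times in DMSO.

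**Figure D2:**
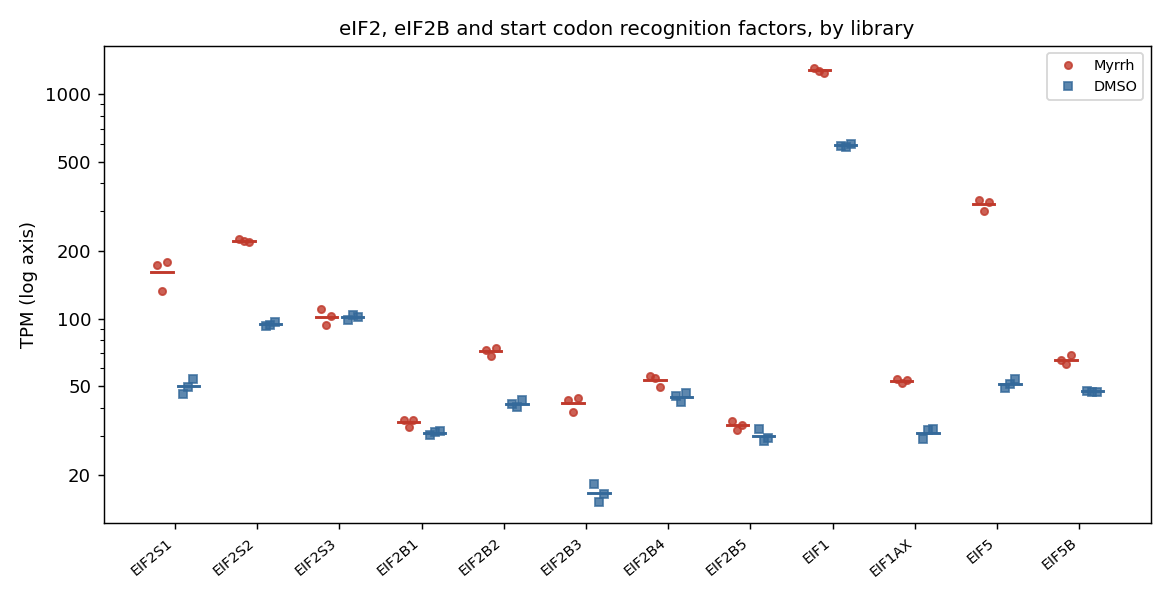
TPM on a log axis for subunits of eIF2 and eIF2B and 4 further factors of the start codon step, with 1 point per library and a bar at the mean of each group. EIF2S3, EIF2B1 and EIF2B5 lie at nearly the same level in both groups, while EIF5 lies at 302 to 337 TPM in Myrrh and 49.3 to 53.8 TPM in DMSO.

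EIF2A and EIF2D, which can deliver initiator or other tRNAs without eIF2, were both called higher. EIF2A had 118, 126 and 113 CPM in Myrrh against 72.7, 71.8 and 76.0 CPM in DMSO, a log2 fold change of 0.69 ± 0.05. EIF2D changed by 0.13 ± 0.06 (adjusted p = 0.037), with the call lost when Myrrh replicate 2 (0.107) or DMSO replicate 1 (0.102), 2 (0.0809) or 3 (0.0923) was left out. With library totals EIF2D was at -0.02 and not called. The eIF2 kinases and phosphatase subunits around this step gave 5 genes higher and 1 lower of 6, where 39.3% of all genes were higher and 39.1% lower. In counts, 3 of the 6 calls were small and depended on the processing. EIF2AK1 (-0.12 ± 0.05) was not called without Myrrh replicate 1 (adjusted p = 0.205) or DMSO replicate 1 (0.075), 2 (0.0843) or 3 (0.0638). EIF2AK2 (0.15 ± 0.05) was not called with library totals (0.003, adjusted p = 0.961) or without DMSO replicate 1 (0.0846) or 2 (0.0904). In TPM the gap of EIF2AK2 was wider, at 46.9, 36.3 and 40.7 TPM in Myrrh and 18.1, 18 and 21.3 TPM in DMSO. EIF2AK4 (0.21 ± 0.06), whose groups overlapped, was not called with library totals (0.07, adjusted p = 0.323) or on TPM. EIF2AK3 (PERK) rose by 2.02 ± 0.07, and PPP1R15A (GADD34), which directs a phosphatase to eIF2 alpha, rose by 4.13 ± 0.06.

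EIF5, the factor that makes eIF2 hydrolyse its GTP once the start codon is found, had the highest log2 fold change of all members, at 2.01 ± 0.06 (adjusted p = 3.07e-21). It had 489, 508 and 492 CPM in Myrrh, against 120, 123 and 126 CPM in DMSO. Every Myrrh library was thus about 4-fold above every DMSO library. EIF1 and EIF1AX, which keep the scanning ribosome open until the start codon is met, rose by 0.94 ± 0.05 and 0.61 ± 0.06. EIF1 was the member with the highest TPM in Myrrh, with 1310, 1270 and 1240 TPM, against 588, 581 and 601 TPM in DMSO. Its close paralog EIF1B rose by 0.70 ± 0.06 and EIF1AD, which carries an eIF1A-like domain, by 0.58 ± 0.07. EIF1AY, the Y-linked copy of EIF1AX, was not tested. EIF5B, the GTPase that joins the large subunit, rose by 0.46 ± 0.05, and EIF6, which holds the large subunit apart, by 0.74 ± 0.05. In TPM, EIF5 stood at 4.92 ± 0.201 times EIF5B in Myrrh and 1.08 ± 0.0547 times in DMSO, a log2 change of 2.18, against 1.56 for their ratio in counts.

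The eIF3 complex, the scaffold on the small subunit, has 13 subunits in humans, and each was called higher. EIF3J, a loosely bound subunit at the mRNA channel, led with 217, 231 and 223 CPM in Myrrh and 70.0, 68.4 and 70.3 CPM in DMSO. Its log2 fold change was 1.69 ± 0.05 (adjusted p = 3.08e-20). EIF3M, a subunit of the core, had 223, 256 and 227 CPM in Myrrh and 108, 106 and 110 CPM in DMSO. Its log2 fold change was 1.12 ± 0.06. EIF3C, another core subunit, had 424, 435 and 498 CPM in Myrrh and 228, 235 and 247 CPM in DMSO. Its log2 fold change was 0.93 ± 0.06. None of these 3 overlapped between groups. EIF3C shares reads with its near-identical copy EIF3CL, which had 16.6, 25.0 and 8.74 CPM in Myrrh and 21.1, 14.7 and 12.9 CPM in DMSO. EIF3CL was not called (0.06 ± 0.45), and the copies summed gave 0.89.

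At the lower end of eIF3 were EIF3B, EIF3K and EIF3L. EIF3B, the scaffold of the module next to the mRNA entry, had 160, 158 and 178 CPM in Myrrh and 124, 130 and 127 CPM in DMSO (log2 fold change 0.39 ± 0.05). EIF3K, which together with EIF3L forms an outer pair of the core, had 86.6, 95.3 and 94.1 CPM in Myrrh and 71.6, 68.7 and 69.0 CPM in DMSO (0.40 ± 0.05). EIF3L had 144, 157 and 153 CPM in Myrrh and 109, 110 and 117 CPM in DMSO (0.44 ± 0.05). All 3 were higher in every Myrrh library than in any DMSO library.

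Between these ends, EIF3A (0.89 ± 0.06) and EIF3E (0.86 ± 0.06) lay near EIF3C. The MPN-domain subunits EIF3H (0.57 ± 0.06) and EIF3F (0.51 ± 0.05) and the subunits EIF3I (0.59 ± 0.06), EIF3G (0.46 ± 0.05) and EIF3D (0.44 ± 0.05) lay near the median of the complex. Neighbours from EIF3I to EIF3B in this order differed by about 1 standard error or less. In TPM, EIF3C was the highest subunit and EIF3A the lowest in both groups. EIF3C averaged 627 TPM in Myrrh and 389 TPM in DMSO, while EIF3A averaged 82.8 TPM in Myrrh and 44.1 TPM in DMSO. In CPM, EIF3C was close to EIF3E, with means of 452 and 420 in Myrrh and 237 and 232 in DMSO. The near-identical copy EIF3CL averaged 16.2 CPM but 7.22 TPM in DMSO. The top TPM rank of EIF3C therefore rests on the transcript length that RSEM assigned to it. EIF3J was next to the lowest in DMSO at 54.6 TPM and reached 193 TPM in Myrrh, where it stood at 2.34 ± 0.253 times EIF3A, against 1.24 ± 0.0584 times in DMSO.

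**Figure D3:**
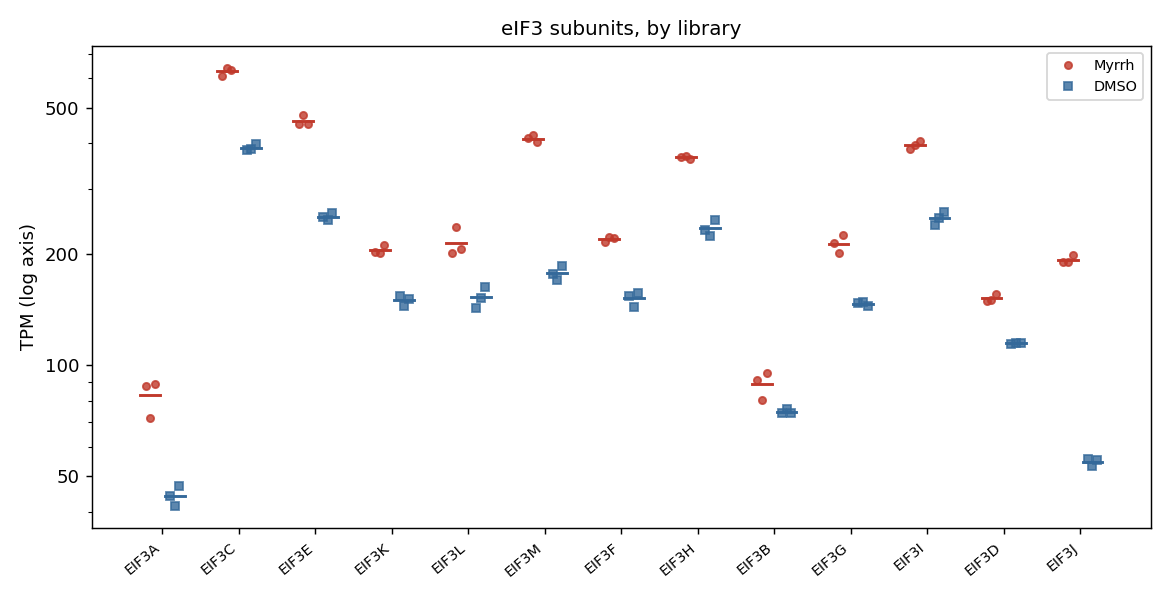
TPM on a log axis for the 13 eIF3 subunits, with 1 point per library and a bar at the mean of each group. Each subunit is higher in every Myrrh library than in any DMSO library, and EIF3J, at 190 to 199 TPM in Myrrh and 53.2 to 55.5 TPM in DMSO, shows the widest gap.

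EIF3J-DT, a long noncoding RNA that starts on the opposite strand beside EIF3J, fell. It had 9.85, 8.96 and 9.21 CPM in Myrrh and 12.9, 12.1 and 13.5 CPM in DMSO, with no overlap. The log2 fold change was -0.46 ± 0.09 (adjusted p = 6.84e-05). GENCODE 29 shares 8.5% of the exon bases of EIF3J-DT with CTDSPL2 on the opposite strand. The strand setting of the counts is not known, so reads there cannot be told apart. In TPM, EIF3J stood at 22.4 ± 1.74 times EIF3J-DT in Myrrh and 4.95 ± 0.404 times in DMSO. In GRCh38, GENCODE 29 places EIF3J on chromosome 15 at 44537057 to 44563029 on the plus strand and EIF3J-DT at 44527257 to 44536923 on the minus strand. Their start sites are 134 bases apart and the stretch between them, shown because the 2 transcripts that leave it moved in opposite directions, is 133 bases long with 78.9% G or C. It is written here 5′ to 3′ on the EIF3J strand, at chr15:44536924-44537056, from RefSeq on GRCh38.p14, with no capitals because none of the 5 motifs searched lies between these GENCODE starts. RefSeq places the EIF3J start farther in, at 44537147, 224 bases from that of EIF3J-DT, and between the RefSeq starts lies 1 antioxidant response element, printed further on.
EIF3J-DT to EIF3J: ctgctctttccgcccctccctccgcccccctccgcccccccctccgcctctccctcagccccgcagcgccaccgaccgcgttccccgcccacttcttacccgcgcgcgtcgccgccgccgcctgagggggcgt
Of the other noncoding members, EIF1B-AS1 was not called (-0.33 ± 0.23, adjusted p = 0.191). EIF1AX-AS1, EIF2B5-DT and EIF5-DT had too few counts to be tested. EIF5-DT, which starts on the opposite strand near EIF5 (1177 bases upstream in GENCODE 29, but 423 bases downstream of the EIF5 start in RefSeq), had 0.335, 0.269 and 0.235 CPM in Myrrh and 0.716, 0.382 and 0.649 CPM in DMSO.

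Among the eIF4 genes the cap-binding protein, its inhibitors and the scaffolds gave values in both directions. EIF4E, the cap-binding subunit, had 39.9, 38.6 and 40.9 CPM in Myrrh and 26.1, 26.3 and 26.1 CPM in DMSO, a log2 fold change of 0.61 ± 0.06 with no overlap. EIF4EBP1 (4E-BP1), which sequesters eIF4E when mTORC1 is inactive, had 180, 207 and 196 CPM in Myrrh and 100, 99.0 and 88.2 CPM in DMSO. It rose by 1.02 ± 0.06 (adjusted p = 6.2e-14). EIF4EBP2, its paralog, fell by 0.29 ± 0.05 on the log2 scale, with 58.0, 60.3 and 59.0 CPM in Myrrh and 71.2, 70.5 and 74.4 CPM in DMSO. Both paralogs kept their groups apart, in opposite directions.

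In TPM, EIF4EBP1 stood at 36.8 ± 1.89 times EIF4EBP2 in Myrrh and 14.9 ± 1.41 times in DMSO (SD, n = 3 each). Against EIF4E it stood at 8.93 ± 0.537 times in Myrrh and 7.33 ± 0.203 times in DMSO, so that both ratios were higher in every Myrrh library. The third 4E-BP gene, EIF4EBP3, had 1.97, 3.09 and 0.705 CPM in Myrrh and 1.43, 1.87 and 2.56 CPM in DMSO and was not called. GENCODE 29 assigns 73.4% of its exon bases also to the read-through gene ANKHD1-EIF4EBP3, so its counts are uncertain. EIF4ENIF1, which carries eIF4E into the nucleus and binds it in repressed mRNAs, rose by 0.23 ± 0.07. That call was lost with library totals (0.08, adjusted p = 0.285), with a filter of 5 CPM (0.13, adjusted p = 0.0859) and with limma on TPM of every gene above 0 (adjusted p = 0.101).

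The other cap-binding genes were at lower levels or did not pass the test. EIF4E2 (4EHP), a cap-binding repressor, had 52.9, 59.0 and 57.4 CPM in Myrrh and 59.6, 59.2 and 60.5 CPM in DMSO. Its log2 fold change of -0.08 ± 0.06 was not called; with library totals it was -0.23 and called (adjusted p = 0.000832), while on TPM it lay above 0 and was not called. EIF4E3 was called higher at 1.88 ± 0.44, but its 0.545, 0.941 and 0.611 CPM in Myrrh and 0.0842, 0.278 and 0.18 CPM in DMSO rest on few counts, and limma on TPM of every gene above 0 did not call it (adjusted p = 0.0565). The groups of EIF4E3 did not overlap. EIF4E1B, an oocyte form, had too few counts to be tested.

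The helicase and scaffold paralogs also split. EIF4A1, the main helicase of eIF4F, had 891, 938 and 937 CPM in Myrrh and 691, 690 and 690 CPM in DMSO, a log2 fold change of 0.42 ± 0.05. EIF4A2, its close paralog, had 438, 438 and 433 CPM in Myrrh and 420, 409 and 411 CPM in DMSO, and was not called at 0.08 ± 0.05 (adjusted p = 0.169), but limma on log2(TPM + 1) called it higher at 0.20 (adjusted p = 0.00542). EIF4A3, which marks exon junctions and is not part of eIF4F, had 86.6, 93.1 and 83.5 CPM in Myrrh and 91.8, 96.5 and 93.3 CPM in DMSO, at -0.10 ± 0.05 (adjusted p = 0.09). In counts, EIF4A1 alone of these 3 passed the threshold, and its ratio to EIF4A2 in TPM was 2.65 ± 0.0276 in Myrrh and 2.24 ± 0.042 in DMSO. EIF4A3 was called lower with library totals, at -0.24, and without Myrrh replicate 2, at -0.14 (adjusted p = 0.0108). GENCODE 29 shares 29.8% of the exon bases of EIF4A1 with the read-through gene SENP3-EIF4A1 and 41.1% with the transcript AC016876.2, both on its strand.

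EIF4G1, the main scaffold, had 371, 339 and 403 CPM in Myrrh and 256, 259 and 254 CPM in DMSO, a log2 fold change of 0.53 ± 0.06. EIF4G2 (DAP5), which lacks the eIF4E-binding part, had 633, 643 and 631 CPM in Myrrh and 469, 491 and 517 CPM in DMSO, at 0.37 ± 0.06. EIF4G3, the second scaffold of eIF4F, had 93.6, 85.6 and 93.8 CPM in Myrrh and 139, 136 and 143 CPM in DMSO. It fell by 0.62 ± 0.05 on the log2 scale (adjusted p = 2.16e-11), the lowest value of any member. In TPM, EIF4G3 stood at 0.14 ± 0.00777 of EIF4G1 in Myrrh and 0.226 ± 0.0161 in DMSO. On the log2 scale that ratio changed by -0.69 in TPM and by -1.15 in counts. The helicase partners EIF4H (0.45 ± 0.05) and EIF4B (0.21 ± 0.05) rose, and with library totals EIF4B was at 0.07 and not called.

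**Figure D4:**
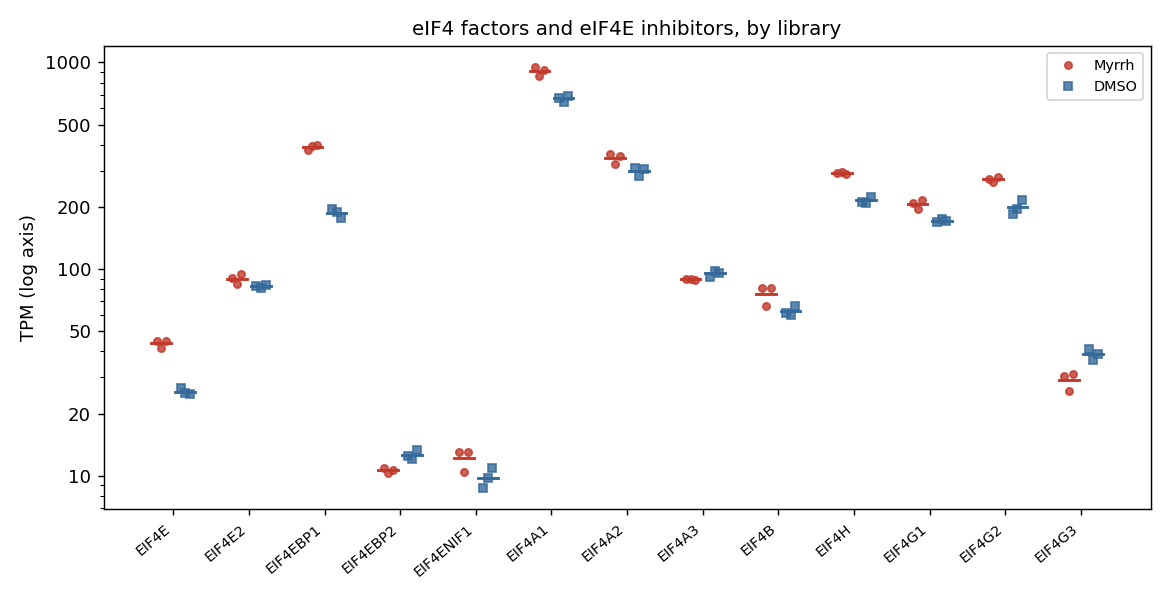
TPM on a log axis for eIF4 factors and the eIF4E inhibitors, with 1 point per library and a bar at the mean of each group. EIF4EBP1 lies higher and EIF4EBP2 lower in Myrrh than in DMSO, and likewise EIF4G1 higher and EIF4G3 lower.

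EIF5A, which helps the ribosome past difficult peptide bonds and is known for its hypusine residue, did not pass the test. It had 428, 483 and 457 CPM in Myrrh and 473, 471 and 462 CPM in DMSO, with overlapping groups and a log2 fold change of -0.04 ± 0.06 (adjusted p = 0.539). EIF5A2, its paralog, rose by 0.41 ± 0.08, but limma on TPM values did not call it (adjusted p = 0.0729). The retrocopy EIF5AL1 was lower at -0.42 ± 0.17 (adjusted p = 0.0226, and 0.128 without Myrrh replicate 1 or 0.0669 without DMSO replicate 2), with means of 2.86 CPM in Myrrh and 3.82 CPM in DMSO, and shares reads with EIF5A. Of the 2 enzymes that make hypusine, DOHH rose by 1.23 ± 0.09 and DHPS fell by 0.38 ± 0.06. On library totals EIF5A was called lower, at -0.18.

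Genes of the same pathway outside the family were read from listed sets. Of 21 listed genes that act on initiation or on its factors, inhibitors among them, 15 rose, 3 fell and 3 were not called. Their median log2 fold change was 0.24. Besides DOHH, the highest were MKNK2 (1.14 ± 0.05), a kinase that phosphorylates eIF4E, and DHX29 (0.85 ± 0.06), a helicase on the small subunit. The lowest, with DHPS, were MKNK1 (-0.82 ± 0.06), the other eIF4E kinase, and PDCD4 (-0.71 ± 0.06), which inhibits eIF4A. Of 9 genes with EEF symbols, a set named after elongation factors, 7 rose and 1 fell. The highest were EEF1E1 (0.87 ± 0.07), EEF2 (0.83 ± 0.06) and EEF1G (0.81 ± 0.06). Membership by symbol does not show that a gene such as EEF1E1 acts in elongation. EEF2K, the kinase that inactivates EEF2, fell by 0.32 ± 0.06. The smallest called increases were those of the tRNA-carrying factors EEF1A2 (0.24 ± 0.11) and EEF1A1 (0.39 ± 0.05). The groups of EEF1A2 overlapped, and its call was lost with library totals (0.10, adjusted p = 0.402), with DESeq2 (0.105) and without Myrrh replicate 1 (0.0752) or 3 (0.234) or DMSO replicate 1 (0.106), 2 (0.069) or 3 (0.0795). All 3 termination factor genes rose, with ETF1 at 1.08 ± 0.05, GSPT2 at 0.94 ± 0.09 and GSPT1 at 0.73 ± 0.05, as did the mitochondrial initiation factors MTIF2 (1.13 ± 0.06) and MTIF3 (0.29 ± 0.07). Across these sets and the eIF2 kinases, 32 genes were higher and 5 lower, and with library totals 21 were higher and 7 lower. Among all 16395 genes tested, 39.3% were higher and 39.1% lower. With library totals, all genes split into 5378 higher and 7479 lower.

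Counts and TPM gave unlike sizes for a few members, and the ratio of a gene's count to its TPM gives the mean transcript length that RSEM assigned to it. This was set relative to the mean of the DMSO libraries after centring each library on its median gene, and tested with limma over 10738 genes with a mean of at least 5 TPM. EIF5 had implied lengths of 0.656, 0.699 and 0.651 in Myrrh, against 1.02, 0.991 and 0.989 in DMSO. The log2 change was -0.58 ± 0.03 (adjusted p = 0.00135), so in TPM EIF5 rose further than in counts, with means of 323 TPM in Myrrh and 51.3 TPM in DMSO. EIF2S1 had implied lengths of 0.645, 0.779 and 0.612 in Myrrh and 1.04, 0.975 and 0.985 in DMSO, a log2 change of -0.57 ± 0.10 (adjusted p = 0.0194). That call was lost without Myrrh replicate 1 (adjusted p = 0.0619), DMSO replicate 1 (0.0655), DMSO replicate 2 (0.0606) or DMSO replicate 3 (0.0591), at values of -0.54 to -0.59.

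EIF1 was also shorter, by a small amount (-0.11 ± 0.01), and EIF4G1 (0.32 ± 0.05), EIF3B (0.20 ± 0.02) and EIF4H (0.07 ± 0.02) were longer. Without Myrrh replicate 1 or any 1 DMSO replicate, EIF4G1 (adjusted p of 0.0554 to 0.0651, values of 0.30 to 0.33) and EIF4H (0.11 to 0.147) were not called, nor was EIF4H without Myrrh replicate 3 (0.109). EIF3C was longer by 0.30 ± 0.08 but was not called (adjusted p = 0.0544). It was called with a minimum mean of 20 TPM (0.0432) and without Myrrh replicate 2 (0.0218). Of the 47 members tested 6 were called, where 19.0% of all genes were. In each direction, 6.38% of members were called shorter and 6.38% longer, against 9.63% shorter and 9.36% longer among all genes, so neither share of members was above that of all genes. The deposited tables are per gene, and which transcripts of EIF5 or EIF2S1 differ was not analysed here. Outside the family, the implied length of EIF2AK2 was also shorter, by -0.90 ± 0.06 on the log2 scale (adjusted p = 0.00169). The comparison of implied lengths was added after the values were seen.

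**Figure D5:**
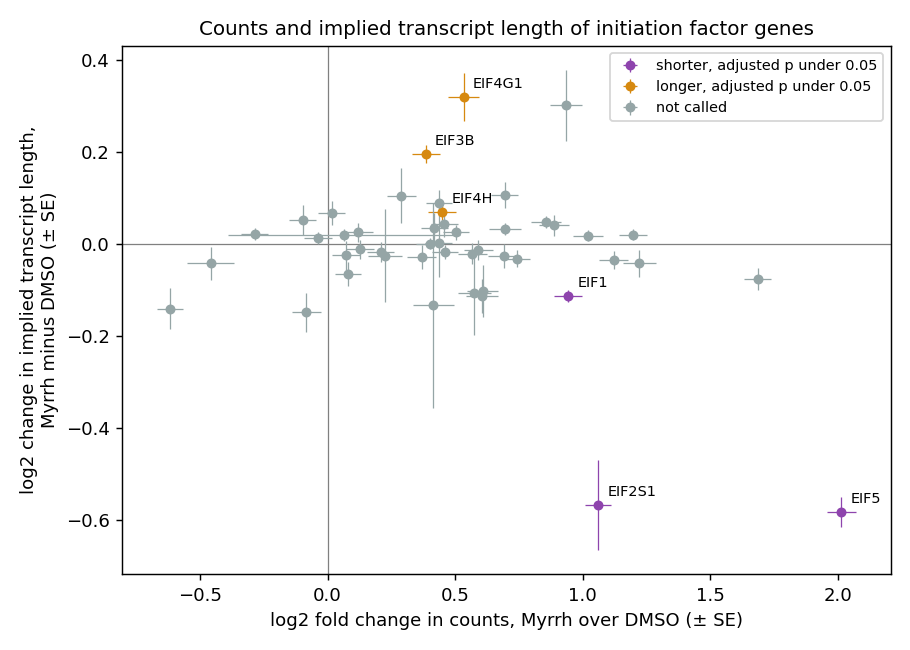
For the 47 members with a mean of at least 5 TPM, the log2 fold change in counts against the log2 change in implied transcript length, each Myrrh against DMSO with its standard error. EIF5 and EIF2S1 lie apart at the lower right, with higher counts and shorter implied length in Myrrh, while EIF4G1 lies at the top.

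Promoter stretches of RefSeq on GRCh38.p14, 250 bases before to 50 after each gene's start, were found for 49 of the 57 members. They were searched on both strands for 5 short motifs, as a description of letters and not of bound factors. The E-box CACGTG, a motif that MYC and related factors recognise, was present in 12 of 49 (24.5%), against 7.43% of 27305 promoters in all. The set of all promoters, here and below, was not limited to the 16395 genes tested. It was not matched to the members in expression or base content either. The sites of the 6 eIF4 genes among the 12 are shown because that group holds the most, with 12 bases on either side, 5′ to 3′ on the strand of the gene and with the E-box in capitals.
EIF4E site 1, chr4:98929341-98929370: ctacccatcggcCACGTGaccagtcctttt
EIF4E site 2, chr4:98929188-98929217: ggacatatccgtCACGTGgccagaagctgg
EIF4G1 site 1, chr3:184314450-184314479: ggctgtggctgtCACGTGacggggcggggg
EIF4G1 site 2, chr3:184314527-184314556: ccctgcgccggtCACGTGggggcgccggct
EIF4B, chr12:53006422-53006451: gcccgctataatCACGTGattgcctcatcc
EIF4H, chr7:74174145-74174174: acgccgccgcacCACGTGggctgcagagcg
EIF4A3, chr17:80147232-80147261: ccagttccctttCACGTGacgaagagtgcc
EIF4EBP3, chr5:140547637-140547666: tgccagcagctgCACGTGgtcggctgagtc
The 12 holders, which also include EIF1B with EIF1B-AS1 on a shared site, EIF2B3, EIF3F, EIF3K and EIF5A2, had log2 fold changes of -0.33 to 1.22. Of these, 9 were higher (75%, near the 73.1% of all members tested), none was lower and 3 were not called.

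The 4 other motifs gave unlike shares. The ATF4 element TGATGNAA was in none of the 49 promoters (3.67% of all), nor was a heat shock element of 3 units, GAA, TTC and GAA with 2 bases between neighbours (0.487% of all). The antioxidant response element TGACNNNGC was in 13 of 49 (26.5%), against 13.6% of all, with EIF3J and EIF3J-DT sharing 1 site, and in EIF4G1 and EIF5A2 it overlaps an E-box by 2 bases. Of the 11 holders tested 8 were higher, or 72.7%, near the 73.1% of all members tested (39.3% of all genes tested). The 3 lower ones were EIF4G3, EIF4EBP2 and EIF3J-DT, or 27.3%, against 7.69% of members and 39.1% of all genes tested. The holders thus include the highest member, EIF5, and the lowest, EIF4G3. The sites of EIF5 and of the pair EIF3J and EIF3J-DT are shown with 10 bases on either side and the match in capitals (in EIF3J it lies on the opposite strand).
EIF5, chr14:103334102-103334130: aagatgcgatTGACGTCGCaagcgaacca
EIF3J, chr15:44537061-44537089: tcggctcggcGCACAGTCAgccacggtcc
The ER stress element, CCAAT and CCACG with 9 bases between them, was in 1 member, EIF2A, against 0.0806% of all promoters. That site is printed with its fixed letters in capitals.
EIF2A, chr3:150546710-150546728: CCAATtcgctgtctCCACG
A C followed by at least 5 pyrimidines within 10 bases of the annotated start, the shape of a terminal oligopyrimidine tract, was in 18 of 49 members (36.7%) and 20.5% of all promoters. No sequence is shown for EIF2S2, EIF3A, EIF3CL, EIF3E, EIF3G, EIF3H, EIF3L or EIF4EBP1.

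In GRCh38 the 8 members that rose at least 2-fold are spread over 7 chromosomes. EIF5 lies on chromosome 14 at 103333544 to 103345025 and EIF2S1 on the same chromosome at 67359997 to 67386516. EIF2S2 lies on chromosome 20 at 34088298 to 34112332, EIF2B3 on chromosome 1 at 44850522 to 44986722 and EIF3M on chromosome 11 at 32583798 to 32606262. EIF4EBP1 lies on chromosome 8 at 38030341 to 38060365 and EIF4E3 on chromosome 3 at 71675416 to 71754773, with EIF3J on chromosome 15. No source used here gives the strand setting of the counts, so reads over exons shared with a gene on the opposite strand cannot be told apart. Such exons make up 9.99% of the exon bases of EIF3M (with CCDC73), 5.85% of EIF3J (with SPG11), 4.76% of EIF2S1 (with ATP6V1D), 2.77% of EIF4E3 (with GPR27) and 10.2% of EIF2B3 (with the pseudogene CCNB1IP1P1).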

How the data were processed

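RNA-seq of 6 libraries was used, 3 with Myrrh and 3 with DMSO. Per the labels' protocols, a TruSeq RNA kit and 1.5 µg of total RNA were used for each library. The submitters' processing notes name STAR, RSEM 1.3.1 and GRCh38; no source used here gives the annotation release, trimming or strand setting. The deposited tables hold estimated counts per gene, unscaled, and log2(TPM + 1), both made by the authors. Between 11.1% and 12.2% of estimated counts were not whole, since RSEM splits shared reads. Counts were rounded, filtered with filterByExpr (16395 genes kept), scaled with TMM (factors 0.933 to 0.973 in Myrrh, 1.05 in DMSO) and tested with edgeR 4.0.16 in R 4.3.3 (glmQLFit, robust, two-sided), Benjamini-Hochberg adjusted over all genes. Standard errors are the log2 fold change over the square root of F. TPM were recovered by undoing the authors' log2. The members and lists were chosen with earlier results of these data known. Per-library values are given for members with at least 2-fold change, eIF2 subunits, the ends of eIF2B and eIF3, and the eIF4A, eIF4E, eIF4G and 4E-BP genes; a few others were added after their values were seen. Alternatives were other scalings and filters, DESeq2 1.42.0, limma 3.58.1 on TPM, a replicate block, summed copies and leaving out each library. The scripts were tested on simulated data. Counts of libraries within a group differed beyond sampling noise (chi-square of 3.84 to 9.0 over its degrees of freedom).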

Additional observations from a re-analysis of the deposited data

How the results depend on the processing

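Of the 52 members tested, 39 stayed called or not called under each of the 16 alternatives that tested them. These include 32 of the 38 higher and 3 of the 4 lower, which also kept their direction. For members called in neither run, the direction was not compared. Scaled by library totals instead of TMM, 8 members were lower, 5 at least 2-fold changed (5 higher), 1 eIF2 or eIF2B gene and 4 eIF4 genes lower, the medians were 0.50 for eIF2 and eIF2B, 0.39 for eIF3 and 0.083 for eIF4, and 21 related genes were higher. Of the genes called under either scaling, EIF2B1 (-0.022), EIF2S3 (-0.127), EIF2D (-0.016) and PAIP2 (-0.028) changed sign with library totals. EIF2AK4, called in the main fit, changed sign on TPM values (-0.001). Sign changes of genes called in neither run are not listed. With a filter of 5 CPM in 3 libraries, 5 members changed at least 2-fold (5 higher), 4 eIF4 genes were lower, and the medians in the same order were 0.39, 0.44 and 0.13; the cause of these shifts was not tested. EIF4E3 is not tested there, and EIF2S1 and EIF4EBP1 are just under 2-fold. Without a filter the eIF4 median was 0.33. The eIF2 and eIF2B median was 0.28 on log2(TPM + 1) of the genes tested, 0.28 on that of every gene above 0, 0.58 on log2(TPM + 0.1) and 0.49 with near-identical copies summed. Leaving out 1 library gave medians of 0.56 to 0.69 for eIF2 and eIF2B and 0.20 to 0.37 for eIF4, and 0 to 1 members at least 2-fold lower. That 1 is EIF5-DT, which is tested and called without Myrrh replicate 1 or DMSO replicate 2. The count with longer implied length was 1 to 5 over the left-out libraries (1 without Myrrh replicate 1 or any DMSO replicate, 5 without Myrrh replicate 2), against 3. Those checks of implied length were added after seeing the data. The replicate block called 41 members, 37 higher and 4 lower, and ended the call of EIF2B1 (adjusted p = 0.0525). Equal numbers did not pair the libraries (correlations of deviations -0.08, 0.01 and 0.04). Low counts limit EIF4E3, EIF4EBP3, EIF2S3B, EIF5AL1 and the noncoding members.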
